A study of Homo sapiens with 12 samples.

Results

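The forkhead genes other than the FOXO genes and FOXM1 were examined in SKBR-3 cells, with 10 members chosen by gene symbol (FOXA1, FOXA3, FOXC1, FOXD1, FOXK1, FOXK2, FOXN2, FOXN3, FOXP1 and FOXP4) out of 20531 genes listed in each library. SKBR-3 is an established breast cancer cell line in which the gene of the receptor tyrosine kinase HER2 (ERBB2) is amplified and the estrogen receptor is absent. RNAseq was performed on 12 samples in 4 groups of 3 replicates. Cells of the first group were transfected with a non-targeting (NT) pool of siRNAs and kept in DMSO, those of the second had the NT pool and lapatinib, those of the third a pool against FOXA1 and DMSO, and those of the fourth the FOXA1 pool and lapatinib. Lapatinib blocks the kinase activity of HER2 and EGFR and was given at 300 nM for 24 h, and DMSO is its solvent. The labels place the drug after 48 h of siRNA, whereas the methods place it after 24 h. All groups were transfected with an siRNA pool, so an untransfected state was not analysed here, and the knockdown was transient and incomplete. Nothing in the labels says that the replicates were separate cultures, and p-values then measure only the spread between these samples, which may be technical. The comparisons ask how the forkhead genes responded to HER2 inhibition, how they responded to depletion of FOXA1, and whether depletion of FOXA1 altered their response to the drug.

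Forkhead proteins share a winged helix DNA-binding domain and differ outside it, which is how members that recognize similar sequences can act as activators or repressors. FOXA proteins are pioneer factors that bind nucleosomal DNA and open it for other factors, and FOXA1 does so for hormone receptors in luminal breast epithelium. FOXP proteins pair through a leucine zipper and mainly repress transcription, FOXK proteins bring the SIN3A and BAP1 complexes to chromatin and repress autophagy genes, FOXN3 is a repressor with a role in the DNA damage checkpoint, and FOXC1 and FOXD1 act mainly in mesenchymal development.

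Library depth, the sum of the estimated counts, ranged from 25749578 to 32271850, with a median of 30542429. All 120 values of the members (10 genes in 12 libraries) were whole numbers to within 1e-06. The cells carried the transcripts of the line, with ERBB2 at 2718 to 6105 TPM (the deposited abundance per transcript length) and KRT8, KRT18 and KRT19 each above 2062 TPM, while ESR1 was at 0.98 TPM or less, PGR at 0.010 TPM or less, and the epithelial cadherin gene CDH1 at 0.25 TPM or less. Summed TPM of 6 fibroblast markers was between 3.11 and 5.82, most of it COL1A1 (2.74 to 5.58 TPM), with LUM at 0 in all libraries. Summed TPM of 5 leukocyte markers was between 15.61 and 43.07, nearly all of it CD68, with PTPRC at 0.32 TPM or less. Summed TPM of 3 endothelial markers was between 3.78 and 12.08, nearly all of it CDH5 (3.23 to 11.78 TPM, with an interaction of 1.30 and an adjusted p of 0.0369), with PECAM1 at 0.27 TPM or less. The part of the latter markers in the results was not tested. The libraries with replicate number 2 stood apart, since the counts of replicate 2 differed from those of replicates 1 and 3 by a chi-square of 12.7 to 18.5 per degree of freedom, against 3.75 to 5.94 between replicates 1 and 3.

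FOXA1, the target of the siRNA, was reduced in every library that received its pool. Its normalized count (count divided by the TMM-scaled library size, at the average depth of the libraries) was 8446.3, 8308.5 and 8767 in replicates 1 to 3 with NT siRNA and DMSO. With FOXA1 siRNA and DMSO it was 1160.1, 1362.2 and 1563.8. In lapatinib it was 12672.4, 12168.3 and 13176.7 with NT siRNA, and 1641.8, 1888.5 and 2383.9 with FOXA1 siRNA. The 4 groups did not overlap, and the depleted cells in lapatinib held less FOXA1 mRNA than any control library. FOXA1 siRNA left 16% of the control mean in DMSO (log2 fold change -2.63, SE 0.10, adjusted p = 4.55e-06) and 15.6% in lapatinib (-2.69, SE 0.12, adjusted p = 6.10e-06). Adjusted p-values throughout come from the quasi-likelihood test of edgeR, adjusted by Benjamini-Hochberg over every gene tested, and a gene passed below 0.05. In these bulk samples, fewer cells with a transcript and less of it per cell cannot be told apart.

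**Figure D1:**
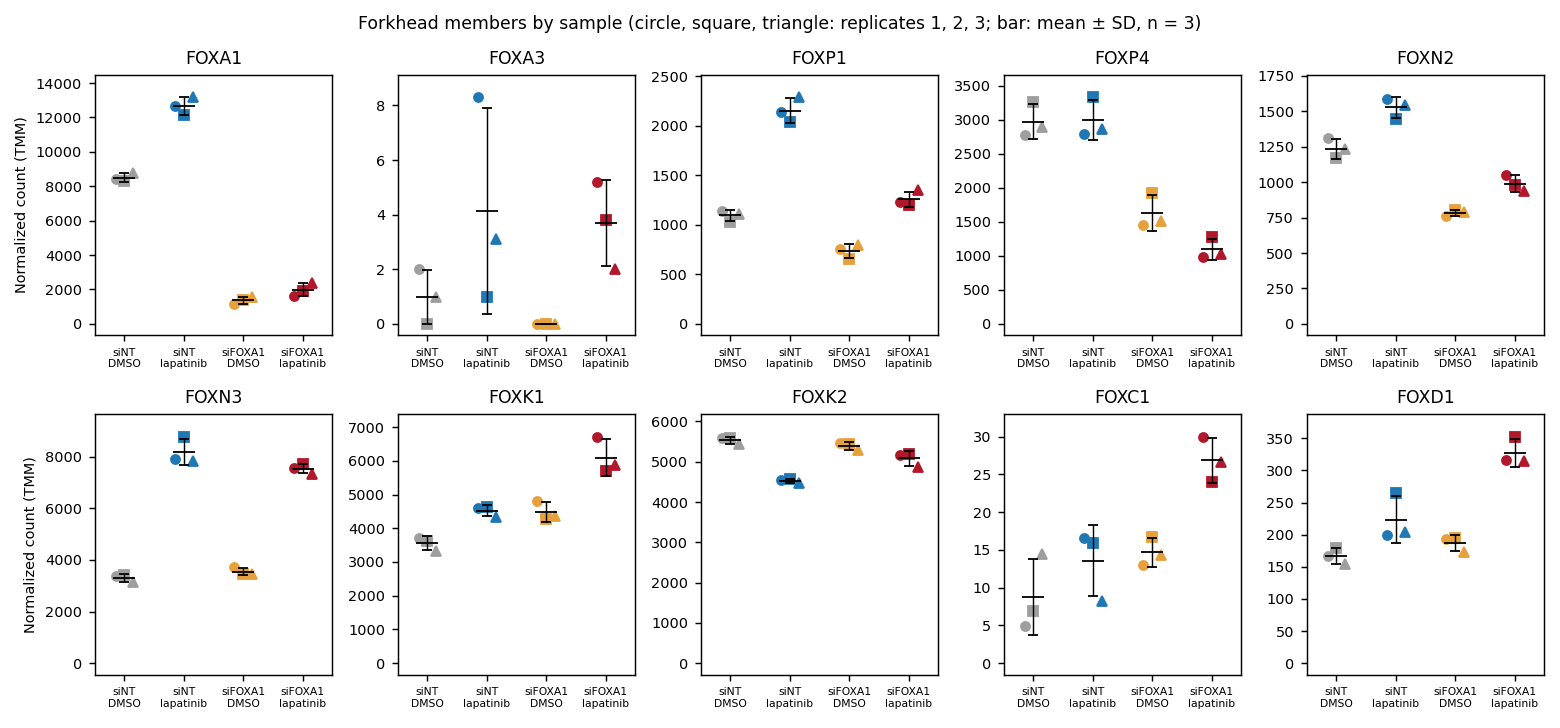
Normalized counts (linear axes, a separate scale for each gene) of the 10 forkhead members in each of the 12 samples, with a marker for each replicate and the mean ± SD of 3 samples in black. FOXA1 lay between 1160.1 and 2383.9 in the 6 samples with its siRNA and above 8308 in the 6 samples without it, FOXN3 was at 7338.9 or more in every lapatinib sample and at 3721.1 or less in every DMSO sample, and FOXP4 was highest in replicate 2 of each group.

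Lapatinib raised most of the forkhead members in control cells. Of 9 members with enough counts to test, 6 rose (FOXA1, FOXD1, FOXK1, FOXN2, FOXN3 and FOXP1), beside 30.5% of all genes tested that rose. FOXK2 fell, beside 29.2% of all genes, and FOXC1 and FOXP4 did not pass. The DMSO and lapatinib samples did not overlap for the same 6 members upward (32.8% of all genes tested) and for FOXK2 downward (33.5%). The median log2 fold change of the 9 was 0.44, beside 0.03 over all genes tested. FOXN3 alone passed the study's fold minimum of 1 on the log2 scale, which 6.64% of genes tested passed upward, and FOXP1 lay just under it. In FOXA1-depleted cells, 7 members rose under lapatinib (FOXA1, FOXC1, FOXD1, FOXK1, FOXN2, FOXN3 and FOXP1), beside 29% of all genes tested, with FOXN3 again the member past the fold minimum, beside 4.93% of genes. FOXP4 fell, beside 29.1% of all genes, FOXK2 did not pass, and the median over the 9 was 0.54, beside 0.01 over all genes. In the model with the replicate number, FOXK2 passed as the second member that fell (2 of 9, beside 34.1% of all genes). Samples did not overlap for 7 tested members upward (32.2% of all genes) and 2 downward (33.1%).

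FOXA1 siRNA lowered 4 members in DMSO (FOXA1 itself, FOXN2, FOXP1 and FOXP4), beside 21.3% of all genes tested, and raised FOXK1, beside 21.9% of all genes. The counts and medians of this paragraph include FOXA1, the siRNA target, whose fall follows from the design. The median log2 fold change of the 9 was -0.03, beside -0.01 over all genes. With the replicate number in the model FOXN3 passed as well, so that 2 members rose (30.3% of all genes). Samples did not overlap for 2 members upward, FOXK1 and FOXN3 (26.2% of all genes), and 4 downward (27.5%). In lapatinib, the same 4 members fell (22.2% of all genes fell) and 4 others, FOXC1, FOXD1, FOXK1 and FOXK2, rose (22.7% of all genes rose), with a median of -0.13 beside -0.01. With the replicate number in the model FOXN3 also fell (5 of 9 members, beside 31.1% of all genes), and samples did not overlap for 4 members upward (28.4%) and 5 downward (27%). FOXA1 and, in lapatinib, FOXP4 fell past the fold minimum, which 2.77% of genes passed downward in DMSO and 3.9% in lapatinib. Both comparisons of the drug share no sample with each other, but each siRNA comparison shares a group with each drug comparison.

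**Figure D2:**
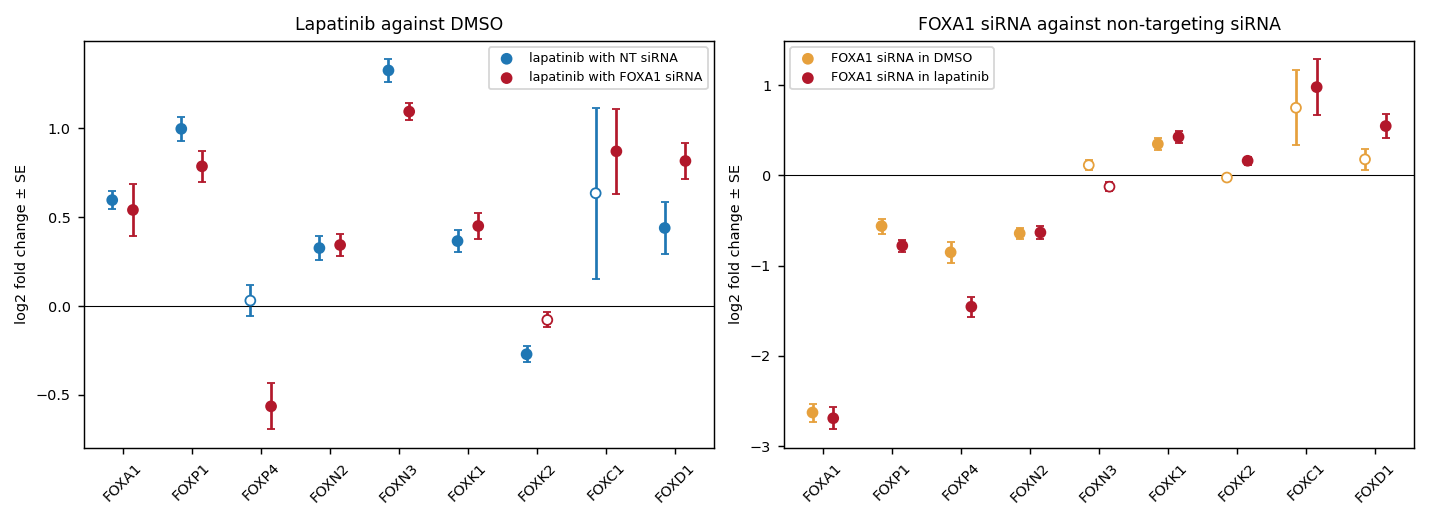
Log2 fold change ± SE (edgeR, 6 samples per comparison) of the 9 tested members for lapatinib against DMSO (left) and FOXA1 siRNA against NT siRNA (right), with filled points at an adjusted p under 0.05. On the left FOXN3 and FOXP1 stand highest and FOXP4 is below 0 only with FOXA1 siRNA, and on the right FOXA1, FOXP1, FOXP4 and FOXN2 are below 0 in both drug states.

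FOXA1 rose 1.51-fold under lapatinib in control cells (log2 fold change 0.60, SE 0.05, adjusted p = 2.14e-05) and 1.45-fold in depleted cells (0.54, SE 0.15, adjusted p = 0.0129). The difference of the log2 responses, the interaction of siRNA and drug, was -0.04 (SE 0.17, adjusted p = 0.928). With both treatments FOXA1 stood at 23.2% of its mean in control cells. FOXA1 (Entrez gene 3169) lies at chr14:37589552-37595249 of GRCh38.p14, and its exons share 16 bases with TTC6 on the opposite strand. FOXA3, the family member known from liver and gut endoderm, was close to undetected, and estimated counts of it were 2, 0 and 1 in control cells and 7, 1 and 3 with lapatinib. In the depleted cells the counts of FOXA3 were 0, 0 and 0 without the drug and 5, 4 and 2 with it. No library reached the 10 counts needed for a test, so FOXA3 was not tested in the main fits, and a change was neither shown nor excluded.

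Promoter sequence from RefSeq (GRCh38.p14) was at hand for 9 of the 10 members in 14 windows of 300 bases, each with 250 bases before and 50 after a start, and FOXN2 had no window. The forkhead words GTAAACA and GTCAACA, searched on both strands, were in 1 of the 14 windows, a FOXP1 promoter, and in 5.62% of 35116 promoters of this length. A wider set of 8 words chosen after the windows were seen (A or G, then T or C, then A or C, then AACA, which includes the words above) was in 2 of the 14, those of FOXA1 and FOXP1, and in 22.9% of all promoters. A match is a description of the letters and not a site. The following stretches of 100 bases show these 2 matches in capitals, with the promoters of FOXP4 and FOXN3 (bases 100 to 1 before the start), the members with the largest responses to FOXA1 siRNA besides FOXA1 and to lapatinib, which held no match. They lie at chr14:37595400-37595499 (minus strand), chr3:71245228-71245327 (minus strand), chr6:41546281-41546380 (plus strand) and chr14:89619166-89619265 (minus strand), outside the annotated exons of the member.
FOXA1: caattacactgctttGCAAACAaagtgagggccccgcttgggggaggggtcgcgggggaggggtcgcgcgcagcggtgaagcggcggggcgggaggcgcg
FOXP1: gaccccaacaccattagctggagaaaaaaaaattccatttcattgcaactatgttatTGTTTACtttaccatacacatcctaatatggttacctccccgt
FOXP4: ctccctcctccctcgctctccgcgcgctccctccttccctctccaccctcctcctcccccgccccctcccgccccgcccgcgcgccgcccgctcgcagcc
FOXN3: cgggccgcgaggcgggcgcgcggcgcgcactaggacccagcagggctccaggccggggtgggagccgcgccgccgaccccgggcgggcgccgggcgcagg

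FOXP4, a repressor of the FOXP group, was the member other than FOXA1 with the largest fall after FOXA1 siRNA. Its normalized counts with NT siRNA were 2776, 3263.3 and 2888.5 without the drug and 2785.6, 3333.8 and 2871.7 in lapatinib. The NT groups overlapped, and the log2 fold change under lapatinib was 0.03 (SE 0.09, adjusted p = 0.780), with either sign when single libraries were left out. With FOXA1 siRNA the normalized counts were 1448.9, 1931.7 and 1515.3 without the drug and 987.8, 1277.3 and 1026.6 with it. All 6 depleted libraries lay below all 6 controls, and within the depleted cells each lapatinib library lay below each DMSO library. FOXP4 fell to 54.8% of control with FOXA1 siRNA in DMSO (log2 fold change -0.85, SE 0.12, adjusted p = 0.000839) and to 36.6% in lapatinib (-1.46, SE 0.11, adjusted p = 3.29e-05). Lapatinib lowered it in depleted cells by 0.56 on the log2 scale (SE 0.13, adjusted p = 0.00593). FOXP4 (Entrez gene 116113) lies at chr6:41546381-41602384.

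The response of FOXP4 to lapatinib differed between control and depleted cells by a log2 value of -0.58 (SE 0.17), which missed the threshold without the replicate number in the model (adjusted p = 0.0644) and passed with it (adjusted p = 7.07e-05). Replicate 2 was the highest in all 4 groups. The interaction of FOXP4 did not pass in 15 of 20 alternatives and passed in 5, which include the fit with the replicate number. Without the replicate 2 libraries, the difference was -0.56 with an adjusted p of 0.000511, and DESeq2 gave an adjusted p of 0.0145. The other passes came without replicate 2 of the control group (adjusted p = 0.0418) or of the depleted lapatinib group (adjusted p = 0.0309). Within each replicate number, the log2 ratio of lapatinib to DMSO was between -0.01 and 0.03 with NT siRNA and between -0.60 and -0.55 with FOXA1 siRNA, so the difference was between -0.63 and -0.55 in 3 of 3 replicates. The fit with the replicate number uses these same differences, so they are not separate support for it.

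**Figure D3:**
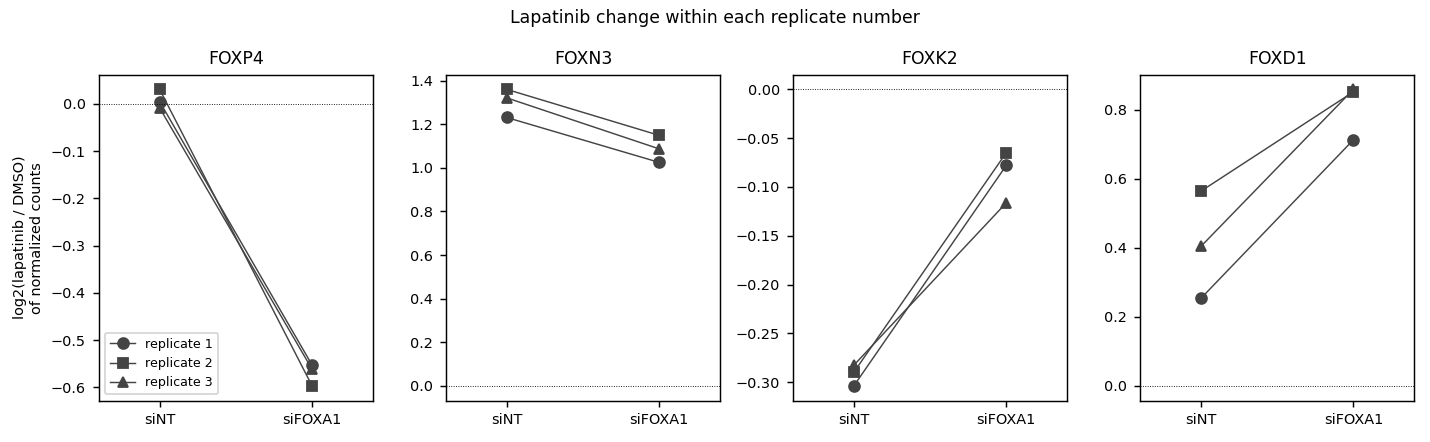
Log2 ratio of the normalized count in lapatinib to that in DMSO within each replicate number, with NT siRNA (left of each panel) and FOXA1 siRNA (right), for the 4 members whose interaction passed with the replicate number in the model. The vertical scale differs between panels, and the lines of all 3 replicates go down for FOXP4 and FOXN3 and up for FOXK2 and FOXD1. Genes were chosen by a test of these same differences, so the agreement of the lines adds no separate support.

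FOXP1, which pairs with FOXP4, moved in the same direction as FOXP4 after FOXA1 siRNA, but rose under lapatinib in depleted cells, where FOXP4 fell. Its normalized counts in control cells were 1139.8, 1030.3 and 1113, and 2134.1, 2033.7 and 2287.9 with lapatinib. In depleted cells FOXP1 had 756.4, 652.3 and 793.8 in DMSO and 1227.5, 1203.3 and 1347 in lapatinib. Lapatinib raised FOXP1 1.9963-fold in control cells (log2 fold change 0.997, SE 0.07, adjusted p = 9.16e-06) and 1.72-fold in depleted cells (0.79, SE 0.09, adjusted p = 0.000112), and the difference was -0.20 (SE 0.11, adjusted p = 0.336). FOXA1 siRNA lowered it to 67.1% of control in DMSO (-0.56, SE 0.08, adjusted p = 0.00117) and to 58.5% in lapatinib (-0.78, SE 0.07, adjusted p = 6.81e-05). The depleted cells in lapatinib therefore held 115% of the FOXP1 mean of control cells, with all 3 libraries above the control range. FOXP1 (Entrez gene 27086) lies at chr3:70954708-71583978 and has 6 of the promoter windows. Its exons share 2539 bases with an unnamed gene on the same strand and 57 with another on the opposite strand. The sources used here do not say if strand was used in counting.

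FOXN3, the checkpoint repressor, had the largest response to lapatinib among the members. Its normalized counts with NT siRNA were 3374, 3423.9 and 3142.5 without the drug and 7920.4, 8785.8 and 7853.9 in lapatinib. In depleted cells FOXN3 had 3721.1, 3475.3 and 3454.1 in DMSO, and 7570.6, 7705.9 and 7338.9 when lapatinib was added. Drug and solvent groups were far apart under either siRNA, with a rise of 2.51-fold in control cells (log2 fold change 1.33, SE 0.06, adjusted p = 2.69e-06) and 2.14-fold in depleted cells (1.09, SE 0.05, adjusted p = 2.28e-06). FOXA1 siRNA gave a log2 fold change of 0.11 in DMSO (SE 0.05, adjusted p = 0.123) and -0.13 in lapatinib (SE 0.05, adjusted p = 0.0868). Both passed with the replicate number in the model, as a rise in DMSO (adjusted p = 0.0215) and a fall in lapatinib (adjusted p = 0.00593), and the interaction of -0.22 (SE 0.08) went from an adjusted p of 0.110 to 0.0175. Without the replicate 2 libraries the interaction was -0.22 with an adjusted p of 0.0469. Of 20 alternatives for this interaction, these 2 passed and 18 did not (adjusted p up to 0.228). FOXN3 (Entrez gene 1112) lies at chr14:89156177-89619165, and its exons share 282 bases with an unnamed gene on the same strand. They also share 832 and 229 bases with unnamed genes on the opposite strand.

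FOXN2, a less studied relative first described by its binding to a viral promoter, resembled FOXA1 in direction. Its normalized counts were 1310.2, 1169.1 and 1230.9 in control cells and 1589.5, 1449.2 and 1545.1 with lapatinib. After FOXA1 siRNA FOXN2 had 761.4, 801.1 and 790 in DMSO and 1050.8, 983.2 and 935.5 in lapatinib. FOXN2 fell to 63.4% of control in DMSO (log2 fold change -0.64, SE 0.06, adjusted p = 0.000154) and to 64.8% in lapatinib (-0.63, SE 0.07, adjusted p = 0.000181). It rose 1.25-fold under lapatinib in control cells (0.33, SE 0.07, adjusted p = 0.00305) and 1.27-fold in depleted cells (0.34, SE 0.06, adjusted p = 0.00192). The interaction of 0.03 (SE 0.09, adjusted p = 0.894) took either sign when single libraries were left out. FOXN2 (Entrez gene 3344) lies at chr2:48313659-48379295.

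FOXK1 rose with each treatment, and its paralog FOXK2 did not. The normalized counts of FOXK1 were 3716.8, 3629.2 and 3327.5 in control cells, 4589.1, 4628 and 4336.8 with lapatinib, 4819.3, 4270.9 and 4364.1 with FOXA1 siRNA, and 6719.2, 5702 and 5867 with both. Each treated group lay above the control group and the combined group above all others. The rise under lapatinib was 1.29-fold in control cells (log2 fold change 0.37, SE 0.06, adjusted p = 0.000900) and 1.37-fold in depleted cells (0.45, SE 0.07, adjusted p = 0.000971). The rise after FOXA1 siRNA was 1.27-fold in DMSO (0.35, SE 0.06, adjusted p = 0.00304) and 1.34-fold in lapatinib (0.42, SE 0.07, adjusted p = 0.00147). The interaction was 0.10 (SE 0.10, adjusted p = 0.631), and the cells with both treatments held 171% of the control mean. FOXK1 (Entrez gene 221937) lies at chr7:4682295-4771442.

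FOXK2 had normalized counts of 5600.3, 5578.7 and 5437.6 in control cells and 4536.8, 4563.4 and 4470.2 with lapatinib. With FOXA1 siRNA it was 5454.8, 5442.3 and 5286.4 in DMSO and 5168.3, 5203.2 and 4877.3 in lapatinib. The NT groups were separate, the depleted groups did not overlap either but were closer, and the control and depleted groups in DMSO overlapped. Lapatinib lowered FOXK2 in control cells by 0.27 on the log2 scale (SE 0.04, adjusted p = 0.000939). In depleted cells the log2 fold change was -0.08 (SE 0.04, adjusted p = 0.149, and 0.0406 with the replicate number in the model). FOXA1 siRNA gave -0.03 in DMSO (SE 0.04, adjusted p = 0.624) and a rise of 0.16 in lapatinib (SE 0.04, adjusted p = 0.0197). That rise did not pass without replicate 1 or 3 of the NT lapatinib group (adjusted p = 0.0510 and 0.0682) or without replicate 1 or 2 of the depleted lapatinib group (adjusted p = 0.0820 and 0.0626). FOXK2 (Entrez gene 3607) lies at chr17:82519732-82604602, and its exons share 1190 and 162 bases with unnamed genes on the opposite strand.

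FOXK2 was the 1 member whose response to lapatinib differed between control and depleted cells without the replicate number in the model, beside 3.99% of all genes tested with an interaction above 0. The difference was 0.21 (SE 0.05, adjusted p = 0.0378), and it did not pass in 9 of the 12 fits that left out a library. No member had a passing interaction below 0, beside 3.2% of all genes, while 2 had one below 0 at an unadjusted p under 0.05 by edgeR and DESeq2 called 1 at its adjusted threshold. With the replicate number in the model, 2 members (FOXD1 and FOXK2) passed above 0, beside 11.1% of all genes, and 2 (FOXN3 and FOXP4) below 0, beside 9.22% of all genes.

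FOXD1, a factor of the developing kidney stroma, was expressed at a low level and was highest with both treatments. Its normalized counts were 167.5, 179.5 and 154.3 in control cells, 199.7, 265.4 and 204.2 with lapatinib, 192.9, 195.4 and 173.2 with FOXA1 siRNA, and 316.2, 352.7 and 314.2 with both. Only the control group and the FOXA1 siRNA group in DMSO overlapped among the 4 comparisons. Lapatinib raised FOXD1 1.36-fold in control cells (log2 fold change 0.44, SE 0.14, adjusted p = 0.0278) and 1.76-fold in depleted cells (0.82, SE 0.10, adjusted p = 0.000208). The former did not pass without replicate 1 or 3 of the control group (adjusted p = 0.0758 and 0.110) or without replicate 2 of the NT lapatinib group (adjusted p = 0.0767). FOXA1 siRNA gave 0.18 in DMSO (SE 0.11, adjusted p = 0.246) and a rise of 0.55 in lapatinib (SE 0.13, adjusted p = 0.00933). The interaction was 0.39 (SE 0.17, adjusted p = 0.205, and 0.0425 with the replicate number in the model). Of 20 alternatives for it, 2 passed and 18 did not (adjusted p up to 0.367). FOXD1 (Entrez gene 2297) lies at chr5:73446266-73448777, and its exons share 424 bases with FOXD1-AS1 on the opposite strand.

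FOXC1, known as a marker of basal-like breast tumors, was near the limit of the test. Its estimated counts were 5, 7 and 15 in control cells, 14, 16 and 8 with lapatinib, 13, 18 and 15 with FOXA1 siRNA, and 29, 25 and 26 with both. The first 3 groups overlapped in part, and the libraries with both treatments lay above all others. FOXC1 gave a log2 fold change of 0.64 under lapatinib in control cells (SE 0.48, adjusted p = 0.282) and 0.75 after FOXA1 siRNA in DMSO (SE 0.41, adjusted p = 0.181), where leaving out replicate 3 of the control group gave 1.30 (adjusted p = 0.0438). It rose by 0.87 under lapatinib in depleted cells (SE 0.24, adjusted p = 0.0133) and by 0.98 after FOXA1 siRNA in lapatinib (SE 0.31, adjusted p = 0.0323), but neither passed with DESeq2 (adjusted p = 0.0800 and 0.0914). The latter also did not pass without replicate 3 of the NT lapatinib group (0.0909) or without replicate 1 or 3 of the depleted lapatinib group (0.104 and 0.0769). Of 5 basal or myoepithelial markers, KRT5, KRT14 (11 normalized counts at most) and ACTA2 rose after FOXA1 siRNA in DMSO, beside 21.9% of all genes, while TP63 gave -0.19 (adjusted p = 0.728) and MYH11 -0.08 (adjusted p = 0.741). The summed TPM of the 5 went from 1.74 to 2.72 in the control group to 4.35 to 6.35. In lapatinib KRT5 and KRT14 rose, beside 22.7% of all genes. ACTA2 gave 0.91 there (adjusted p = 0.0869, and 0.00229 with the replicate number in the model), MYH11 gave -0.30 (adjusted p = 0.181), and TP63 was too low to test. The sum in lapatinib was 2.01 to 3.69 with NT siRNA and 4.04 to 5.67 with FOXA1 siRNA, and the part of such cells in the FOXC1 result was not tested. FOXC1 (Entrez gene 2296) lies at chr6:1609915-1613897, and FOXA3 (Entrez gene 3171) at chr19:45864326-45873797.

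Levels of different genes were compared per length, by the deposited TPM. In control cells FOXA1 was first with 177.6 TPM ± 5.86 (SD, n = 3), followed by FOXK2 with 65.52 ± 1.86, FOXP4 with 31.16 ± 3.44, FOXK1 with 27.63 ± 2.21 and FOXN3 with 26.1 ± 1.46, where FOXP4 and FOXK1, and FOXK1 and FOXN3, overlapped. FOXN2 (14.02 TPM), FOXP1 (12.3) and FOXD1 (4.667) followed without overlap, and FOXC1 and FOXA3 were below 0.27 TPM in each control library. Under lapatinib FOXA1 was still first (260.7 TPM ± 7.97) and FOXN3 came to second place (63.66 ± 4.7). In depleted cells FOXK2 was first in DMSO with 64.37 TPM ± 1.34, and FOXK1 (32.86 ± 2.98), FOXA1 (29.07 ± 4.4) and FOXN3 (28.26 ± 1.22) followed with overlapping ranges between neighbors. In depleted cells with lapatinib, FOXK2 (59.67 ± 2.37) and FOXN3 (58.68 ± 1.69) overlapped at the top, ahead of FOXK1 (45.63 ± 4.84) and FOXA1 (41.08 ± 7.63), which overlapped each other. The deposited effective length of FOXK1 ranged from 7155.97 to 8870.69 bases between libraries and that of FOXP1 from 5013.28 to 5622.81, so their TPM also moves with the isoforms assigned, while the other members varied by 1.025-fold or less.

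FOXA1 made up 49.44% ± 1.28 of the summed TPM of the 10 members in control cells and 52.97% ± 1.59 with lapatinib. After FOXA1 siRNA its share was 14.92% ± 2.18 in DMSO and 16.34% ± 2.95 in lapatinib. Over all forkhead genes listed, the shares were 33.41% in control cells, 39.27% with lapatinib, 9.091% with FOXA1 siRNA and 10.41% with both. The siRNA groups did not overlap in either drug state, while in depleted cells the DMSO and lapatinib ranges did. The summed TPM of the 10 members was 359.2 ± 6.21 in control cells, 492.3 ± 3.63 with lapatinib, 194.7 ± 1.19 with FOXA1 siRNA and 251.3 ± 1.65 with both. Without FOXA1 the sums of the other 9 were 181.6 ± 5.27, 231.5 ± 8.13, 165.7 ± 3.26 and 210.2 ± 6.64, so the other members together were not higher after FOXA1 siRNA, at a ratio of 0.912 in DMSO and 0.908 in lapatinib. Within that sum, FOXK1 rose in both drug states while FOXN2, FOXP1 and FOXP4 fell in both.

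**Figure D4:**
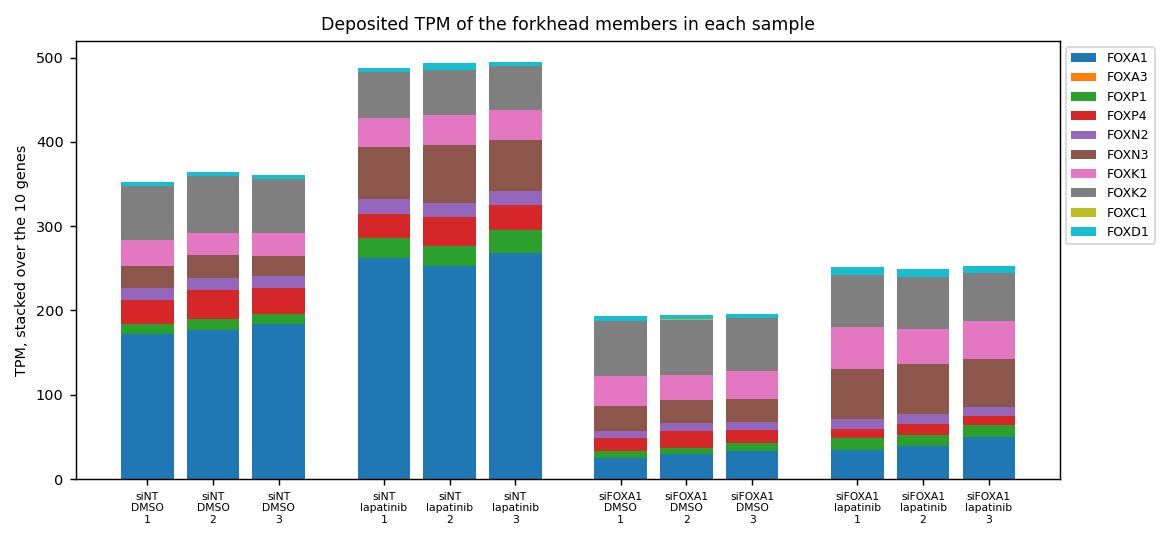
Deposited TPM of the 10 forkhead members in each of the 12 samples, stacked (linear axis from 0). The FOXA1 segment fills 48.62% to 54.14% of the bar in the 6 samples with NT siRNA and 12.74% to 19.52% in the 6 samples with FOXA1 siRNA, while the rest of the bar is taller with lapatinib than with DMSO under either siRNA.

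Across the 12 samples, the genes whose log2 normalized counts were most alike to those of FOXA1 among 10811 genes were SIKE1 (Pearson r 0.993), HOOK3 (0.992) and CLDND1 (0.99). Their group means in control, lapatinib, FOXA1 siRNA and combined cells were 2402, 2574, 1557 and 1607 for SIKE1, 1414, 1691, 741 and 881 for HOOK3, and 975, 1118, 390 and 515 for CLDND1. Among the 8 members with a mean of at least 100, FOXN2 was the most alike to FOXA1 (0.944), and FOXA1 to FOXP4 (0.854). FOXD1 and FOXK1 were most alike to each other (0.893), FOXN3 to FOXP1 (0.781) and FOXP1 to FOXN2 (0.874). No member had a positive correlation with FOXK2, whose highest value was -0.16 with FOXP4 and lowest -0.868 with FOXP1. These values describe 12 samples that fall into 4 treatment groups and share their libraries.

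Of 39 other forkhead genes on a list from general knowledge, 37 matched by symbol and 14 could be tested under lapatinib in control cells, of which 4 rose and 3 fell, beside 30.5% and 29.2% of all genes tested. In depleted cells 15 could be tested, of which 5 rose and 4 fell, beside 29% and 29.1% of all genes. Among those with a mean of at least 100, FOXO3 and FOXO4, whose proteins are held out of the nucleus by AKT signaling, and FOXM1, which drives mitotic genes, passed the fold minimum. FOXO1 gave 0.21 in control cells (adjusted p = 0.161) and 0.08 in depleted cells (adjusted p = 0.340). FOXO3 rose by 1.88 on the log2 scale in control cells (SE 0.06, adjusted p = 1.27e-06) and by 1.49 in depleted cells (SE 0.08, adjusted p = 4.52e-06), with an interaction of -0.37 (SE 0.10, adjusted p = 0.0456). That interaction did not pass in 12 of 20 alternatives (adjusted p up to 0.109). FOXO3 has a near copy, FOXO3B, with which reads may be shared, so its level is uncertain. FOXO4 rose by 1.60 and 1.35 (SE 0.19 and 0.17), and FOXM1 fell by 1.57 and 1.09 (SE 0.19 and 0.14). FOXA1 siRNA raised 2 and lowered 4 of 14 other forkhead genes in DMSO, beside 21.9% and 21.3% of all genes, and raised 2 and lowered 5 of 15 in lapatinib, beside 22.7% and 22.2%. Of 16 tested for the interaction, FOXO3 and FOXN1 passed below 0, beside 3.2% of all genes, and FOXN1 was picked out after its values were seen. FOXN1, known from thymic epithelium, had normalized counts of 6.9, 5.9 and 3.8 in control cells, 33.3, 48.7 and 39 with lapatinib, 41, 29.8 and 26.7 with FOXA1 siRNA, and 74.4, 70.2 and 79.8 with both, and its interaction was -1.64 (SE 0.37, adjusted p = 0.0205).

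Among 11 factors that act with FOXA1 in luminal cells, 9 matched by symbol and were tested. In control cells under lapatinib 7 of them rose (GATA3, TFAP2A, TFAP2C, GRHL2, SPDEF, TLE1 and TLE3) and ARID1A fell, beside 30.5% and 29.2% of all genes tested, with a median log2 fold change of 0.35 beside 0.03. In depleted cells 5 rose (TFAP2A, TFAP2C, SPDEF, TLE1 and TLE3), beside 29% of all genes, with a median of 0.29 beside 0.01. GRHL2 gave 0.29 there (SE 0.13, adjusted p = 0.0846, and 0.000383 with the replicate number in the model), with an interaction of -0.03 (adjusted p = 0.962). Members that FOXA1 siRNA lowered included TFAP2C, SPDEF and ARID1A in DMSO, and GATA3, SPDEF and TLE3 in lapatinib, where TLE1 rose (22.7% of all genes rose). Partner genes are named here after their values were seen, since none reached the fold minimum. GATA3, a luminal transcription factor, had normalized counts of 2828.2, 2794.3 and 2831.9 in control cells and 5245.4, 4338.7 and 5557.8 with lapatinib. In depleted cells GATA3 was 2688.9, 2792.4 and 2907.8 in DMSO and 2843.5, 2690 and 3164.8 in lapatinib, so the 3 groups other than NT with lapatinib overlapped. Lapatinib raised it by 0.86 (SE 0.09, adjusted p = 6.99e-05) in control cells and gave 0.06 (SE 0.07, adjusted p = 0.462) in depleted cells, and the interaction of -0.79 passed (SE 0.12, adjusted p = 0.00269). GATA3 was the 1 of the 9 that passed below 0, beside 3.2% of all genes. With the replicate number in the model, 3 of the 9 had an interaction above 0 and 2 below 0, beside 11.1% and 9.22% of all genes in that model, and FOXA1 siRNA raised 2 in lapatinib, beside 30.6% of all genes.

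Of 11 factors that bind FOXK proteins (the BAP1 and SIN3 complexes and the Dishevelled proteins), all were tested. The shares of all genes that rose and fell were 30.5% and 29.2% under lapatinib in control cells, 29% and 29.1% in depleted cells, 21.9% and 21.3% after FOXA1 siRNA in DMSO, and 22.7% and 22.2% in lapatinib, and the counts of these 11 and of the 7 below stand beside them. Lapatinib raised ASXL2, OGT and SIN3A and lowered HCFC1 and SIN3B in control cells, and in depleted cells raised 5 (ASXL1, ASXL2, SIN3A, DVL1 and DVL2) and lowered SIN3B. FOXA1 siRNA lowered 5 in DMSO (HCFC1, SIN3A, SUDS3, DVL2 and DVL3) and raised ASXL2, and in lapatinib lowered SUDS3 and DVL3 and raised ASXL2 and DVL1. DVL1, which FOXK proteins carry to the nucleus in Wnt signaling, passed for the interaction at 0.39 (SE 0.09, adjusted p = 0.0264). DVL1 was the 1 of the 11 that passed above 0, beside 3.99% of all genes. The interaction of DVL1 did not pass in 9 of 20 alternatives (adjusted p up to 0.0731). The 7 co-repressors of FOXP proteins were also all tested. Lapatinib raised CTBP2 and GATAD2B and lowered CTBP1, GATAD2A and HDAC2 in control cells. In depleted cells it raised GATAD2B and MTA1 and lowered CTBP1, GATAD2A, HDAC1 and HDAC2. FOXA1 siRNA raised CTBP2 and lowered GATAD2B and HDAC2 in DMSO, and lowered GATAD2B and HDAC1 in lapatinib. With the replicate number in the model, FOXA1 siRNA raised 3 and lowered 6 of the 11 FOXK partners in DMSO, beside 30.3% and 30.2% of all genes in that model, and lowered 5 in lapatinib, beside 31.1%. Lapatinib lowered 2 of them in depleted cells, beside 34.1%. Besides the 5 named above, OGT (0.14, adjusted p = 0.00486) and DVL3 (0.14, adjusted p = 0.00416) rose there with the replicate number in the model. In that model FOXA1 siRNA lowered 4 of the 7 FOXP co-repressors in DMSO and raised 2 in lapatinib, beside 30.6% of all genes, and 2 FOXK and 2 FOXP partners had an interaction above 0, beside 11.1%. Without the replicate number in the model, the interaction passed for CTBP2 at -0.36 (SE 0.07, adjusted p = 0.0115) and for HDAC1 at -0.24 (SE 0.05, adjusted p = 0.0171). These were 2 of the 7 FOXP co-repressors, beside 3.2% of all genes below 0.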

How the data were processed

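RNAseq of 12 SKBR-3 samples was analyzed. The authors deposited, per library and gene, an expected count (an estimate of the reads), a TPM value, an effective length and a normalized signal scaled by upper quartile. The methods name STAR on hg38, Salmon and DESeq2, and the labels name RSEM and a second library kit. Expected counts were rounded and tested with edgeR 4.0.16 in R 4.3.3 (TMM, quasi-likelihood, Benjamini-Hochberg) on genes with 10 counts in at least 1 sample, with 6 samples in each comparison and 12 in the interaction. Procedures were tested on simulated data. The simulation held no replicate effect, so it cannot show how the fits with and without the replicate number compare here. TPM gave the levels. Promoters were read with Python 3.11.15 and pandas 2.3.3.

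The members and lists were chosen with earlier results of these data known. By rule, the text names every member, other forkhead genes with a mean of at least 100 and partner genes past the fold minimum of 1 (log2), and the genes most alike by Pearson r. Deviations from the group mean correlated at 0.267 to 0.696 (mean 0.427, 10812 genes) between samples of equal number in the labels and at -0.199 on average between others, so the numbers were taken as pairs and the replicate block was an alternative fit. The others were RLE and upper-quartile scaling, DESeq2 1.42.0, no filter, 10 counts in every sample, all 12 samples in a model, a threshold of 0.01, the deposited signal for the share, each sample left out and, chosen after seeing the data, replicate 2 of every group left out. Depth limits cover counting error only. Results of 1 listed gene are not reported here.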

Additional observations from a re-analysis of the deposited data

Results flagged for a closer look

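The following genes had a response to lapatinib that differed between cells with NT siRNA and cells with FOXA1 siRNA by the interaction test of edgeR over 12 samples. They come from 9 members, 16 other forkhead genes, and 9 FOXA1, 11 FOXK and 7 FOXP partners that were tested. Of all genes tested, 3.99% passed above 0 and 3.2% below 0. FOXK2 had a difference of 0.21 on the log2 scale (SE 0.05, adjusted p = 0.0378), with a fall in control cells and a smaller value in depleted cells in 3 of 3 replicates. Among other forkhead genes, FOXN1 had -1.64 (SE 0.37, adjusted p = 0.0205, and 0.0524 without the replicate 2 libraries) and FOXO3 -0.37 (SE 0.10, adjusted p = 0.0456). FOXN1 had only 3.8 to 6.9 normalized counts in control cells, so its log2 difference rests on low counts. Among partner factors, GATA3 had -0.79 (SE 0.12, adjusted p = 0.00269), CTBP2 -0.36 (SE 0.07, adjusted p = 0.0115), HDAC1 -0.24 (SE 0.05, adjusted p = 0.0171) and DVL1 0.39 (SE 0.09, adjusted p = 0.0264). The FOXK2 interaction did not pass in 11 of 20 alternatives, that of FOXO3 in 12 of 20 and that of DVL1 in 9 of 20. For FOXN1 it was 3 of 19, for HDAC1 2 of 20, for CTBP2 1 of 20 and for GATA3 0 of 20. Groups of 3 samples were too small for a test of single outlying samples.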

How the results depend on the processing

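Of 1352 alternative values for single genes, 1244 kept direction and side of the threshold, 33 passed newly, 57 no longer passed and 18 changed sign. The causes were not tested. With the replicate block, 2 members fell under lapatinib in depleted cells, 2 rose after FOXA1 siRNA in DMSO, and the interaction had 2 above and 2 below 0; the block changed no other call of a member except FOXN3 in lapatinib. DESeq2 called 1 interaction below 0. Interactions above 0 numbered 0 without a filter and 0 at an adjusted p under 0.01, at which 2 members rose after FOXA1 siRNA in lapatinib. Past the fold minimum, 2 rose under lapatinib in depleted cells with no filter. Without replicate 2 of every group (chosen after seeing the data), that count was 2, 2 members rose after FOXA1 siRNA in DMSO, 1 rose past the fold minimum in lapatinib, and 2 interactions were below 0.

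Leaving out 1 library gave 1 to 2 members past the fold minimum under lapatinib in control cells, 1 to 2 that rose after FOXA1 siRNA in DMSO (0 to 1 past the fold minimum), 2 to 4 in lapatinib (0 to 1), and 0 to 2 interactions above and 0 to 1 below 0. Signs changed for 7 results that had not passed. Under lapatinib in control cells FOXP4 ranged from -0.047739 to 0.083326 and DVL1 from -0.015032 to 0.065522. After FOXA1 siRNA CTBP2 ranged from -0.075619 to 0.007853 in lapatinib and GATA3 from -0.027406 to 0.029421 in DMSO, with -0.00704 unfiltered, -0.011139 with all 12 samples and -0.0021776 without replicate 2 of every group. Interactions ranged from -0.20088 to 0.073281 for FOXA1, -0.30666 to 0.53157 for FOXC1 and -0.013948 to 0.070018 for FOXN2. Over all forkhead genes listed, the FOXA1 share was 33.41%, 39.27%, 9.091% and 10.41% in control, lapatinib, FOXA1 siRNA and combined cells. FOXA3 was below the count filter and was fitted only in the alternative with no filter. At this depth changes of FOXC1 and FOXA3 were limited by their low counts.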
